A study of Mus musculus with 13 samples.

Results

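The transcripts described here encode 10 integrin subunits, listed by gene symbol, with no threshold on a measured value: the leukocyte subunits Itgal, Itgam, Itgax and Itgb2, the αV subunit Itgav with the β subunits Itgb3, Itgb5 and Itgb1, and the α subunits Itga4 and Itga6. They are 10 of 52636 genes listed for each mouse, and all 10 were among the 17086 that passed the filter on low counts. RNA-Seq was performed on brain-resident myeloid cells from cortex and hippocampus of PS2APP mice aged 14 to 15 months, 7 PS2APP;Trem2wt (5 females and 2 males) and 6 PS2APP;Trem2ko (5 females and 1 male). All 13 mice carried the PS2APP transgenes, which encode familial Alzheimer's disease mutant forms of human presenilin 2 and amyloid precursor protein and give rise to β-amyloid plaques. PS2APP;Trem2ko mice were homozygous for the Trem2tm1(KOMP)Vlcg null allele, a deletion present in every cell, and no mice without the transgenes entered these comparisons. Cells were sorted as CD11b+CD45+Ccr2-Ly6g-, and CD11b is the protein product of Itgam, so every cell collected had been selected for 1 of the 10 subunits.

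Integrins are adhesion receptors made of an α and a β subunit, which reach the cell surface only as a pair and which change shape to bind matrix proteins, complement fragments or counter-receptors on other cells. The β2 subunit, restricted to leukocytes, pairs with CD11a (Itgal) in LFA-1, with CD11b (Itgam) in Mac-1 or complement receptor 3, with CD11c (Itgax) in complement receptor 4 and with CD11d (Itgad). αV pairs with several β subunits and binds ligands with an RGD sequence, including vitronectin, osteopontin and the latent form of TGF-β, whereas α4 and α6 pair with β1 and bind VCAM-1 or fibronectin and laminins, respectively. In brain myeloid cells, Mac-1 is a usual surface marker of microglia, and CD11c is known as a marker of dendritic cells and of microglia around amyloid plaques.

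Total counts were between 26120961 and 114857155 per PS2APP;Trem2wt mouse and between 41567025 and 120569609 per PS2APP;Trem2ko mouse, so that 3 counts, taken as the limit of detection, corresponded to 0.0249 to 0.115 CPM, counts scaled to library size. Levels are given as nRPKM, reads scaled to gene length and to library size by a size factor, which allows levels of different genes to be compared per length. Trem2 fell from 1044 ± 141 nRPKM (SD, n = 7) to 0.887 ± 0.734 nRPKM (SD, n = 6). The summed level of 10 microglial markers was between 14700 and 18200 nRPKM in PS2APP;Trem2wt mice and between 15400 and 17200 nRPKM in PS2APP;Trem2ko mice, so both groups held the labelled cell type. Of these 10 markers, Cx3cr1 was lower in PS2APP;Trem2ko microglia and the other 9 did not pass the test. Markers of neutrophils, T, NK and B cells, platelets, endothelial cells, astrocytes, oligodendrocytes and neurons summed to at most 150 nRPKM per cell type in any mouse, the sums overlapped between genotypes for each of these types, and 1 gene, of the endothelial list, passed the test.

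Itgax lies on chromosome 7 of GRCm38 (chr7:128129547-128150657, plus strand; ENSMUSG00000030789), downstream of Itgam on the same strand (chr7:128062640-128118491; ENSMUSG00000030786), whose start is 66907 bases before that of Itgax. These neighbours encode the α subunits of complement receptors 4 and 3 and differed in their response to genotype, so their promoter sequences are shown side by side. Each runs from 250 bases before to 50 bases after the RefSeq start on GRCm38.p6, plus strand, read from the RefSeq table, which matched 6 of the 10 subunits. The Itgax window is chr7:128129300-128129599 and the Itgam window chr7:128062390-128062689, and capitals mark matches, on either strand, to 5 short motifs: GAGGAA (the core bound by PU.1-type factors), TGANTCA (an AP-1 site, with N any base), TGTGGT (a Runx core), CACGTG (an E-box) and GGGCGG (a GC box).
Itgax: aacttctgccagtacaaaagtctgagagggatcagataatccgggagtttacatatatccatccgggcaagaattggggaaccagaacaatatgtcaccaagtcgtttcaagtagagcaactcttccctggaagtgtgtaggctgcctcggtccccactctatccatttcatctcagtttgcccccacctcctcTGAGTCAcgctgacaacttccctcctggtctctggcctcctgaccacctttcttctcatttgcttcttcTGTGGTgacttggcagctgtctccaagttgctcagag
Itgam: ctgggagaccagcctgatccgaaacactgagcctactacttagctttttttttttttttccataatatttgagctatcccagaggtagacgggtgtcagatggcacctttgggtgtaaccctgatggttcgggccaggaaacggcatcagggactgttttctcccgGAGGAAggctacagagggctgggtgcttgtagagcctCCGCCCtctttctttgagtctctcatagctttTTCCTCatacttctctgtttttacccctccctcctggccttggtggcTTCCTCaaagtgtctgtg
The Itgax window held 1 TGANTCA match, with its first base 56 bases before the start, and 1 TGTGGT match, 13 bases after it. The PU.1-type core, the E-box and the GC box were not found there, which says only that these letters are not in this window. The Itgam window held 3 GAGGAA matches and 1 GGGCGG match. Of 32851 promoters of the same length, 28.3% held GAGGAA, 7.81% TGANTCA, 16.8% TGTGGT, 7.15% CACGTG and 35.7% GGGCGG. A match is a description of the letters, and no binding was measured in these mice.

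Comparing PS2APP;Trem2ko with PS2APP;Trem2wt microglia asks which subunits depend on Trem2 in aged mice with amyloid. Of the 10 subunits, Itgax alone passed the test (edgeR quasi-likelihood test, p adjusted over all 17086 genes and called at 0.05 or less), and it was lower in PS2APP;Trem2ko microglia. Over all genes tested, 1.53% were lower and 0.503% were higher by the same criterion, and 0.691% were lower and 0.0527% higher by at least 2-fold as well. The median log2 fold change of the 10 subunits was -0.16, with 8 below 0 and 2 above, against a median of 0.00389 over all genes. At an unadjusted p of 0.05 or less, 3 of the 10 were lower and none was higher, against 7.56% lower and 7.29% higher over all genes (14.8% in either direction). In bulk RNA, fewer cells of a type and less RNA per cell cannot be told apart.

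**Figure D1:**
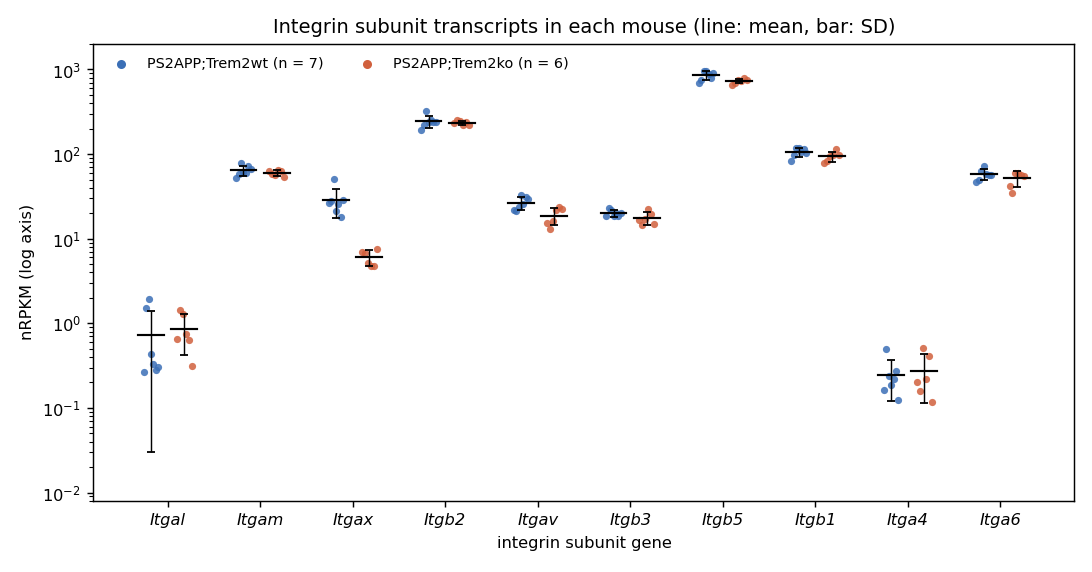
Level of each integrin subunit (nRPKM, log axis) in each mouse, blue points for 7 PS2APP;Trem2wt and orange points for 6 PS2APP;Trem2ko mice, with the mean as a line and the SD as a bar. Itgax is the only subunit of the 10 whose genotypes do not overlap, with 18.1 nRPKM in the lowest PS2APP;Trem2wt and 7.49 nRPKM in the highest PS2APP;Trem2ko mouse, and Itgb5 is the most abundant in both.

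Itgax, the α subunit of complement receptor 4, had 18.1 nRPKM in the lowest, 26.1 in the median and 51.2 in the highest PS2APP;Trem2wt mouse, and 4.73, 6.0 and 7.49 nRPKM, respectively, in PS2APP;Trem2ko mice. All 6 PS2APP;Trem2ko mice thus lay below all 7 PS2APP;Trem2wt mice, and a single PS2APP;Trem2wt mouse, replicate 3, stood well above the other 6, whose highest value was 28.7. The mean fell from 28.4 ± 10.7 nRPKM (SD, n = 7) to 6.01 ± 1.24 nRPKM (SD, n = 6). This was 4.73-fold lower in the edgeR fit (log2 fold change -2.24, SE 0.21, adjusted p = 2.42e-05), and of all genes tested 1.22% had CPM that were lower without overlap and 0.421% had CPM that were higher without overlap. Among all genes, Itgax had the 57th lowest log2 fold change. The measurement rested on 3381 to 22889 counts per PS2APP;Trem2wt mouse and 1348 to 5455 counts per PS2APP;Trem2ko mouse, all far above the limit of detection.

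The difference in Itgax did not rest on 1 mouse or on the males. Without replicate 3 of PS2APP;Trem2wt the log2 fold change was -2.04, and over all mice left out in turn it ranged from -2.33 to -2.04. Among females alone, it was -2.18 (edgeR, adjusted p = 0.00127). The males carried 27.8 and 28.7 nRPKM in PS2APP;Trem2wt and 4.73 nRPKM in PS2APP;Trem2ko, within or next to the range of the females of their genotype.

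CD11c also marks dendritic cells, so their markers were measured beside Itgax. The summed level of 7 dendritic cell markers (Flt3, Zbtb46, Xcr1, Clec9a, Cd209a, Ccr7 and Batf3) was between 10.5 and 20 nRPKM in PS2APP;Trem2wt mice, median 17.4, and between 14.8 and 32.7 nRPKM in PS2APP;Trem2ko mice, median 15.9. The ranges overlapped, 0 of the 7 genes passed the test, and Xcr1 averaged under 0.1 nRPKM. Over all genes tested, 1.53% were lower and 0.503% higher, a share at which few or none of 7 genes would pass. Markers of border macrophages summed to 11.6 to 35.8 nRPKM in PS2APP;Trem2wt and 20.1 to 54.7 nRPKM in PS2APP;Trem2ko mice, and those of monocytes to 2.41 to 21.7 and 3.09 to 19.2 nRPKM, again with no gene passing the test. The PS2APP;Trem2wt mouse with the highest Itgax, replicate 3, had a dendritic cell marker sum of 17.7 nRPKM, close to the median of its genotype. The part of dendritic cells, border macrophages or monocytes in the Itgax level was not tested.

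Itgam encodes CD11b, the α subunit of complement receptor 3 and an antigen of the sort. It had 52.8 nRPKM in the lowest, 60.7 in the median and 79.0 in the highest PS2APP;Trem2wt mouse, and 53.7, 60.7 and 65.0 nRPKM in PS2APP;Trem2ko mice. The PS2APP;Trem2ko mice lay wholly inside the PS2APP;Trem2wt range, and the medians were equal to the digits given. The means were 64.1 ± 8.98 nRPKM (SD, n = 7) and 60.1 ± 4.55 nRPKM (SD, n = 6), and the difference did not pass the test (log2 fold change -0.09, SE 0.09, adjusted p = 0.684). Gm49368, an annotated gene that spans Itgam on the same strand, shares 66.3% of the 50-base words of the Itgam transcripts. It had 27 to 116 counts per mouse, against 10923 to 55953 for Itgam, so nearly all counts of the pair were listed under Itgam. How reads that fit both genes were counted is not given in the sources used here. The absolute level of Itgam, and the shares and ratios that use it, may be affected.

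Itgb2, which encodes the β2 subunit common to all CD11 receptors (chr10:77530252-77565708; ENSMUSG00000000290), had 194, 238 and 325 nRPKM in the lowest, median and highest PS2APP;Trem2wt mouse and 218, 236 and 250 nRPKM in PS2APP;Trem2ko mice. Again the PS2APP;Trem2ko mice lay inside the PS2APP;Trem2wt range, and the mean was 244 ± 40.5 nRPKM (SD, n = 7) against 234 ± 12.2 nRPKM (SD, n = 6). The log2 fold change of -0.06 (adjusted p = 0.829, SE 0.095) turned to 0.02 without PS2APP;Trem2wt replicate 3.

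Itgal, the α subunit of LFA-1 (chr7:127296260-127335138; ENSMUSG00000030830), was a low transcript in these cells, with 0.265, 0.329 and 1.92 nRPKM in the lowest, median and highest PS2APP;Trem2wt mouse and 0.309, 0.704 and 1.43 nRPKM in PS2APP;Trem2ko mice. The values overlapped fully and were uneven within both genotypes, with 4 mice above 1 nRPKM: replicates 2 and 3 of each genotype. LFA-1 is the main β2 integrin of T cells, and T cell markers (6 genes) summed to 1.92 and 3.01 nRPKM in replicates 2 and 3 of PS2APP;Trem2wt and to 4.75 and 2.39 nRPKM in replicates 2 and 3 of PS2APP;Trem2ko. In the other 9 mice the T cell sum was between 0.275 and 2.38 nRPKM. Monocyte markers (6 genes) summed to 21.7 and 10.7 nRPKM in replicates 2 and 3 of PS2APP;Trem2wt. In replicates 2 and 3 of PS2APP;Trem2ko they summed to 9.09 and 19.2 nRPKM. The monocyte sum in the other 9 mice was between 2.41 and 11.8 nRPKM. The part of either cell type in the Itgal level was not tested. The genotype difference of Itgal did not pass the test (log2 fold change 0.23, SE 0.51, adjusted p = 0.883).

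The genotypes thus differed in the make-up of the CD11 transcripts. Summing the nRPKM of Itgal, Itgam, Itgax and Itgad in each mouse, Itgax made up 29.9 ± 5.84% of the sum in the 7 PS2APP;Trem2wt mice (SD) and 9.02 ± 2.12% in the 6 PS2APP;Trem2ko mice (SD), with ranges of 20.1% to 38.7% and 6.78% to 12.2%. Itgam made up 69.3 ± 6.23% and 89.6 ± 2.16%, respectively. Itgal stayed at or below 2.16% and Itgad at or below 0.172% in every mouse.

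**Figure D2:**
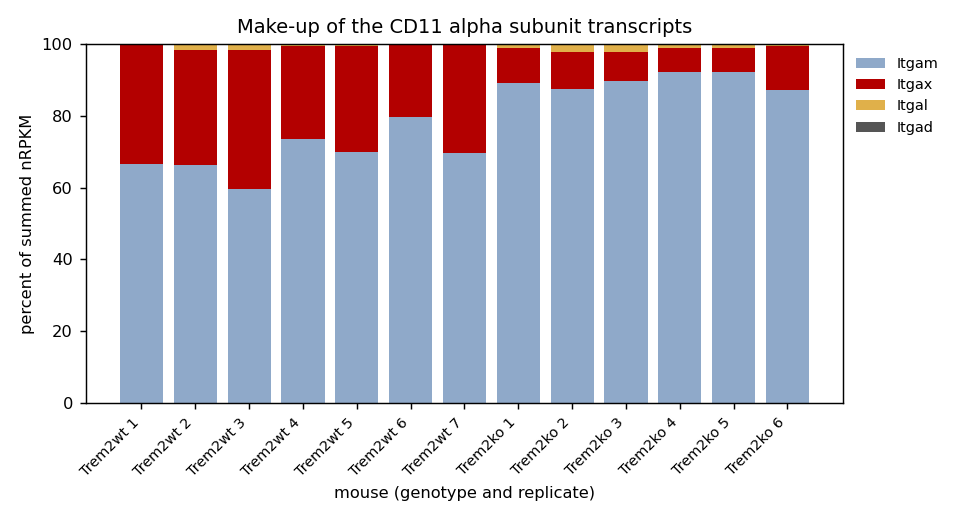
Share of each CD11 α subunit in the summed nRPKM of Itgam, Itgax, Itgal and Itgad (percent), with 1 stacked bar per mouse. The red part, Itgax, is between 20.1% and 38.7% in the 7 PS2APP;Trem2wt mice and between 6.78% and 12.2% in the 6 PS2APP;Trem2ko mice.

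Ratios of subunits within a mouse do not depend on the scaling of its library, and 10 pairs of known partners or CD11 genes were compared between genotypes. The test was an exact permutation test, two-sided, on the 1716 ways to split the 13 mice, with p adjusted over the 10 pairs, and its smallest possible p before adjustment is 0.000583. Log2 of the Itgax to Itgb2 ratio, an α subunit over its β partner, averaged -3.16 ± 0.36 over the 7 PS2APP;Trem2wt mice (SD) and -5.31 ± 0.31 over the 6 PS2APP;Trem2ko mice (SD). As geometric means, there were 0.112 Itgax transcripts per Itgb2 transcript, per length, in PS2APP;Trem2wt and 0.0252 in PS2APP;Trem2ko microglia. The difference of -2.15 on the log2 scale passed the test (exact permutation test, p = 0.000583, the smallest possible, and adjusted p = 0.00291), and all 6 PS2APP;Trem2ko mice lay below all 7 PS2APP;Trem2wt mice. The same held for Itgax over Itgam, from 0.425 to 0.0984 per length (difference -2.11 on the log2 scale, exact permutation test, adjusted p = 0.00291). Itgb2 and Itgam differed little between genotypes, so both ratios, like the CD11 shares, largely restate the Itgax difference. By contrast, Itgam over Itgb2 was 0.263 in PS2APP;Trem2wt and 0.256 in PS2APP;Trem2ko microglia (difference -0.04, exact permutation test, adjusted p = 0.63). Ratios with Itgal varied widely between mice and did not pass the test over Itgb2 (difference 0.59, exact permutation test, adjusted p = 0.404) or over Itgam (difference 0.63, adjusted p = 0.404).

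Itgav, which encodes αV (chr2:83724397-83806916; ENSMUSG00000027087), had 21.4, 25.6 and 32.7 nRPKM in the lowest, median and highest PS2APP;Trem2wt mouse and 13.2, 18.8 and 23.7 nRPKM in PS2APP;Trem2ko mice. Of the 6 PS2APP;Trem2ko mice, 3 lay below every PS2APP;Trem2wt mouse and the other 3 overlapped with them. The mean was 26.6 ± 4.54 nRPKM (SD, n = 7) against 18.8 ± 4.37 nRPKM (SD, n = 6). The log2 fold change was -0.50 (SE 0.15), which did not pass the edgeR test (adjusted p = 0.104) and did pass that of DESeq2 (adjusted p = 0.0176), with the same log2 fold change of -0.50.

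Itgb5, encoding the β5 subunit that forms αVβ5, a receptor for vitronectin and MFG-E8 (chr16:33829665-33949338; ENSMUSG00000022817), had 689, 892 and 961 nRPKM in the lowest, median and highest PS2APP;Trem2wt mouse and 652, 748 and 784 nRPKM in PS2APP;Trem2ko mice. It was the most abundant subunit in every mouse and ranked 35th of all 17086 genes by mean nRPKM in PS2APP;Trem2wt mice. The means were 850 ± 109 (SD, n = 7) and 732 ± 48.3 nRPKM (SD, n = 6), the mice of both genotypes overlapped, and the log2 fold change of -0.22 (SE 0.086) did not pass the test (adjusted p = 0.236).

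Itgb3, the β subunit of the vitronectin receptor αVβ3 (chr11:104608000-104670476; ENSMUSG00000020689), had 18.3, 19.9 and 23.1 nRPKM in the lowest, median and highest PS2APP;Trem2wt mouse and 14.5, 16.8 and 22.3 nRPKM in PS2APP;Trem2ko mice. Here 4 PS2APP;Trem2ko mice lay below every PS2APP;Trem2wt mouse, with a log2 fold change of -0.20 (adjusted p = 0.373, SE 0.1). Itgb1, the β1 subunit that pairs with αV as well as with α4 and α6 (chr8:128685654-128733200; ENSMUSG00000025809), had 82.6, 106 and 118 nRPKM in PS2APP;Trem2wt and 78.4, 96.1 and 114 nRPKM in PS2APP;Trem2ko mice, with 2 PS2APP;Trem2ko mice below the PS2APP;Trem2wt range. Its log2 fold change was -0.17 (adjusted p = 0.474, SE 0.1).

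Each of the 3 β partners was thus set against Itgav within a mouse. Log2 of the Itgb1 to Itgav ratio rose from 2.0 ± 0.19 (SD, n = 7) to 2.35 ± 0.21 (SD, n = 6), or from 3.99 to 5.10 Itgb1 transcripts per Itgav transcript, per length (exact permutation test, p = 0.0117, adjusted p = 0.0389), and 3 of the PS2APP;Trem2ko mice exceeded all PS2APP;Trem2wt mice. This call was lost among females alone (difference 0.37, exact permutation test, adjusted p = 0.106) and when any of 9 of the 13 mice was left out (replicates 1, 2, 3 and 5 of PS2APP;Trem2ko and 1, 4, 5, 6 and 7 of PS2APP;Trem2wt). Over all 13 the adjusted p was between 0.0216 and 0.0842 (exact permutation test), and the difference between 0.29 and 0.4. Itgb5 over Itgav had a difference of 0.31 (exact permutation test, p = 0.0495, adjusted p = 0.124), and so had Itgb3 over Itgav (0.31, exact permutation test, adjusted p = 0.216). The 3 ratios share Itgav, so they are not independent. Itgb1 itself was not higher in PS2APP;Trem2ko (log2 fold change -0.17), while that of Itgav was -0.5, and neither passed the edgeR test.

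**Figure D3:**
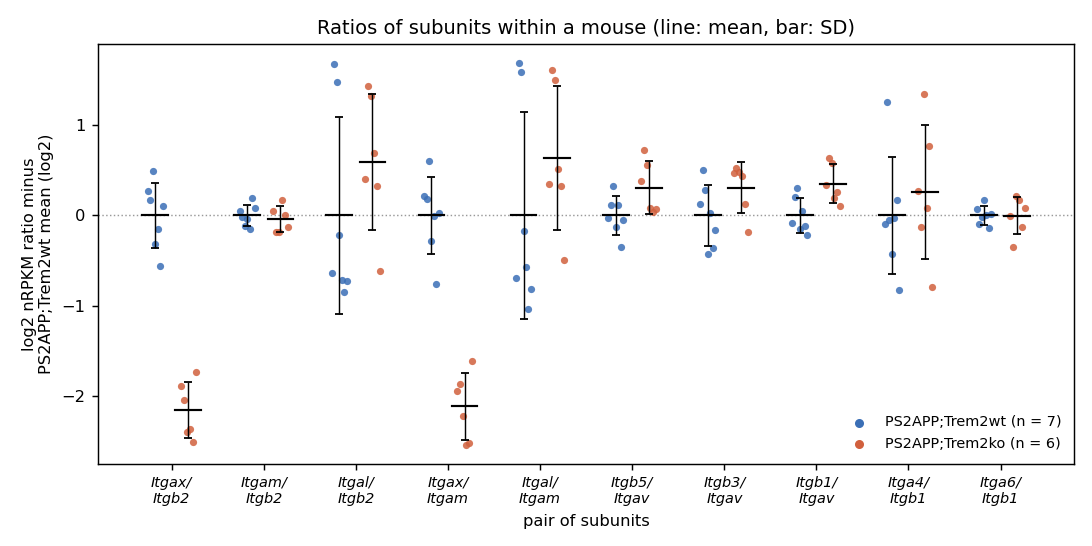
Log2 of the nRPKM ratio of 10 subunit pairs in each mouse, less the PS2APP;Trem2wt mean of the pair (vertical axis, log2), with blue points for 7 PS2APP;Trem2wt and orange points for 6 PS2APP;Trem2ko mice, the mean as a line and the SD as a bar. The pairs with Itgax are at -2.15 (over Itgb2) and -2.11 (over Itgam) in PS2APP;Trem2ko without overlap, and in the other 8 pairs the genotypes overlap.

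The α partners of β1 differed in abundance by orders of magnitude. Itga6, the laminin receptor subunit α6 (chr2:71745616-71858416; ENSMUSG00000027111), had 47.2, 56.4 and 72.6 nRPKM in the lowest, median and highest PS2APP;Trem2wt mouse and 35.1, 56.2 and 60.3 nRPKM in PS2APP;Trem2ko mice, of which 2 lay below the PS2APP;Trem2wt range. The log2 fold change was -0.15 (adjusted p = 0.634, SE 0.13), and Itga6 per Itgb1 transcript was 0.545 in PS2APP;Trem2wt and 0.544 in PS2APP;Trem2ko microglia (exact permutation test, adjusted p = 0.976). Itga4, the α4 subunit that lymphocytes and monocytes use to bind VCAM-1 (chr2:79255426-79333123; ENSMUSG00000027009), had 0.123, 0.221 and 0.499 nRPKM in PS2APP;Trem2wt and 0.119, 0.212 and 0.516 nRPKM in PS2APP;Trem2ko mice. With 70 to 672 counts per mouse it was detected in all 13 mice, and the wide spread within each genotype left a log2 fold change of 0.16 (adjusted p = 0.884, SE 0.36), which turned to -0.11 without PS2APP;Trem2ko replicate 3. The Itga4 to Itgb1 ratio did not pass the test (difference 0.26, exact permutation test, adjusted p = 0.63). The end of Itga4 overlaps Cerkl on the opposite strand, whose transcripts account for most of the 7.51% of Itga4 words shared with other genes, and whether the counting used strand is not stated.

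By mean nRPKM, the order in PS2APP;Trem2wt microglia was Itgb5, Itgb2, Itgb1, Itgam, Itga6, Itgax, Itgav, Itgb3, Itgal and Itga4. Of the 9 neighbours in this order, 6 were told apart within mice (two-sided exact sign-flip permutation test, adjusted p = 0.0234 for each, smallest possible p before adjustment 0.0156). The neighbours not told apart were Itgam and Itga6 (exact permutation test, adjusted p = 0.123), Itgax and Itgav (adjusted p = 0.906) and Itgav and Itgb3 (adjusted p = 0.0603). In PS2APP;Trem2ko microglia Itgax stood below Itgav and Itgb3, and otherwise the order was the same. There 7 of 9 neighbours were told apart (exact permutation test, adjusted p = 0.0402 for each), with Itgb3 above Itgax in 6 of 6 mice by 1.55 ± 0.52 on the log2 scale. Itgam and Itga6 (adjusted p = 0.176) and Itgav and Itgb3 (adjusted p = 0.625) were again not told apart.

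Variation among mice of 1 genotype was compared for the subunits over 10 nRPKM in PS2APP;Trem2wt. In these mice the coefficient of variation of Itgax was 37.8%, above the 9.31% to 17.1% of the other 7, but this rested on replicate 3. Without it, in an alternative chosen after seeing the data, Itgax was at 16.6%, inside the 9.01% to 17.7% of the others. In PS2APP;Trem2ko mice it was 20.7%, inside their 5.2% to 23.3%. To ask which genes varied with Itgax apart from genotype, each genotype's mean was subtracted and Pearson's r of log2 CPM with Itgax was taken over 13 mice for 11014 genes with a mean of at least 1 nRPKM, as a description. The nearest were Cpeb1 (r = 0.89), which encodes an RNA-binding translation factor, Slc16a3 (0.88), the lactate exporter MCT4, Pfkl (0.88), the liver-type phosphofructokinase, Pacsin1 (0.86), a membrane-bending adaptor, and P2ry2 (0.85), a nucleotide receptor. The 95th percentile of r over these genes was 0.54. Without PS2APP;Trem2wt replicate 3 the 5 values were between 0.75 and 0.81. Of these genes, Pacsin1 alone passed the genotype test (log2 fold change -1.65, SE 0.19, adjusted p = 0.00014). Among the 7 other subunits in that range, Itgb2 had the highest r with Itgax (0.53). Without that mouse r was below 0 for each of the 7, from -0.65 (Itgb1) to -0.13 (Itgb2). Library composition and depth are shared by all genes of a mouse, so these values have no p.

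The genes around Itgax were then examined. Of 37 annotated genes reaching within 250 kb of Itgax, 19 were tested, and none of them passed the test by edgeR, with log2 fold changes from -0.74 to 0.38 and a lowest adjusted p of 0.178. Over all genes tested, 1.53% were lower and 0.503% higher, a share at which few or none of 19 genes would pass. Itgad, the next integrin gene downstream, averaged 0.0666 ± 0.0437 nRPKM over the PS2APP;Trem2wt mice and 0.0575 ± 0.0399 nRPKM over the PS2APP;Trem2ko mice (SD, n = 7 and 6) (log2 fold change -0.21, SE 0.58, adjusted p = 0.908). Itgad is also the gene with which Itgax shares sequence, at 384 of 4790 50-base words (8.02%), and no words were shared between any of the 10 subunits.

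**Figure D4:**
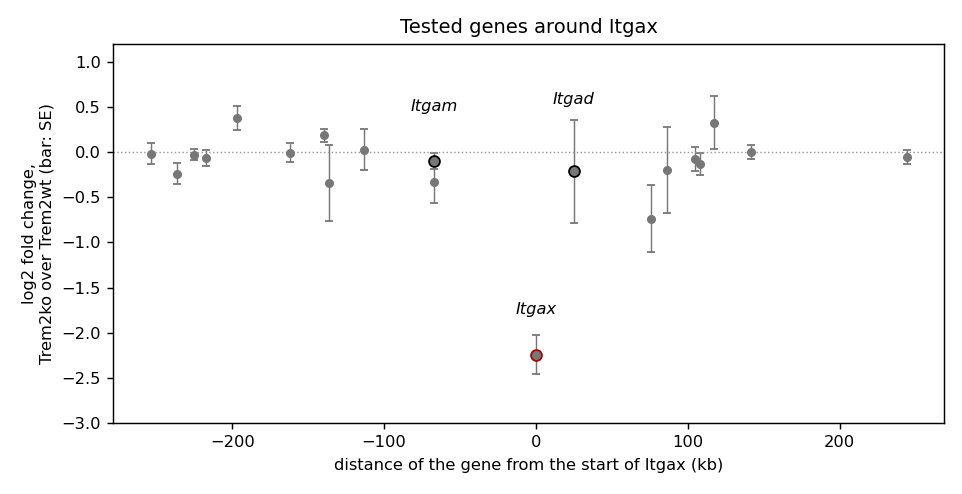
Log2 fold change of each tested gene around Itgax (vertical axis, SE as a bar) by the distance of its start from that of Itgax (horizontal axis, kb). Itgax (red outline) is at -2.24, while the 19 neighbours, including Itgam and Itgad (black outlines), lie between -0.74 and 0.38.

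The remaining 16 integrin subunit genes were examined in the same fit, so that all 18 α and 8 β genes were covered. Of these 16, 10 passed the filter on low counts and none of the 10 passed the edgeR test, with a median log2 fold change of -0.19 and 2 of the 10 at an unadjusted p of 0.05 or less, where all genes had 14.8%. The most abundant were Itga5, the fibronectin receptor subunit α5, at 14.8 ± 2.40 and 13.2 ± 0.697 nRPKM (SD, n = 7 and 6; adjusted p = 0.442), and Itga9, at 13.4 ± 2.46 and 9.73 ± 1.98 nRPKM. Itga9 had 4 PS2APP;Trem2ko mice below every PS2APP;Trem2wt mouse, with a log2 fold change of -0.46 (adjusted p = 0.117, SE 0.14). Itgae, the α subunit CD103, averaged 1.34 and 1.74 nRPKM (log2 fold change 0.37, SE 0.32, adjusted p = 0.637), and Itgb7, its β partner on intraepithelial lymphocytes, 0.859 and 1.33 nRPKM (log2 fold change 0.63, SE 0.4, adjusted p = 0.502). Itga2b, the platelet subunit αIIb, which was named after its value was seen, had the highest log2 fold change of all subunits, 2.10 (adjusted p = 0.286, SE 0.91), at 0.0597 ± 0.0561 and 0.264 ± 0.342 nRPKM (SD, n = 7 and 6). It was highest in PS2APP;Trem2ko replicate 2, at 0.92 nRPKM. The 4 platelet markers, which include Itga2b, summed to 10.5 to 19.5 nRPKM in PS2APP;Trem2wt mice, median 14.0. In PS2APP;Trem2ko mice they summed to 7.45 to 14.9 nRPKM, median 12.3. The part of platelets in the Itga2b level was not tested.

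**Figure D5:**
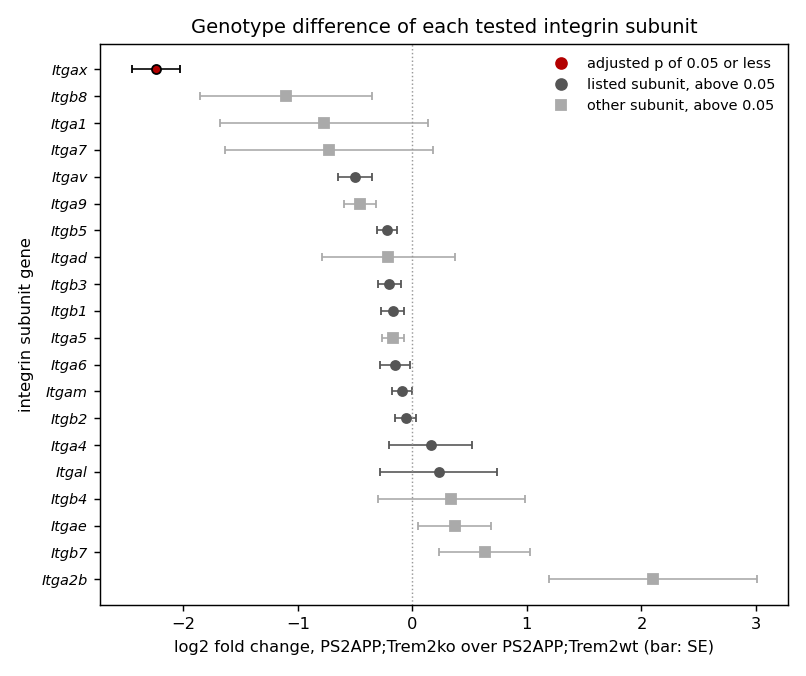
Log2 fold change (PS2APP;Trem2ko over PS2APP;Trem2wt, horizontal axis, SE as a bar) of the 20 integrin subunit genes that were tested, sorted. Dark circles are the 10 listed subunits, grey squares the other 10, and Itgax at -2.24 (red) is the only one of the 20 with an adjusted p of 0.05 or less.

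Signalling and ligand genes of the pathway were counted from lists. Of 25 tested genes for integrin activators and adaptors, some of which couple the β tail to actin, none passed the edgeR test, with a median log2 fold change of -0.05. At an unadjusted p of 0.05 or less there were 6 of the 25, all lower in PS2APP;Trem2ko, against 7.56% lower over all genes. The most abundant were Rap1b, a GTPase that activates integrins, at 181 ± 15.1 and 183 ± 12.6 nRPKM (SD, n = 7 and 6), and Fermt3, the leukocyte kindlin, at 140 ± 13.9 and 153 ± 9.42 nRPKM. Parvg, a parvin of leukocytes, had a log2 fold change of -0.03 (adjusted p = 0.877) and Lims1, the LIM adaptor PINCH-1, one of -0.20 (adjusted p = 0.356). Of 10 integrin-associated membrane proteins, none passed the edgeR test (median log2 fold change -0.08), and 1 of the 10 had an unadjusted p of 0.05 or less, against 14.8% of all genes. The tetraspanins Cd81, Cd9 and Cd63 had 0.11, 0.06 and -0.09, respectively, and Slc3a2, the CD98 heavy chain, had -0.06.

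Of 21 tested integrin ligand genes, 3 were lower in PS2APP;Trem2ko microglia and none was higher, against 1.53% lower and 0.503% higher over all genes, with a median log2 fold change of -0.18. Spp1, encoding osteopontin, an RGD ligand of αV integrins, had 132, 272 and 603 nRPKM in the lowest, median and highest PS2APP;Trem2wt mouse and at most 25.0 nRPKM in PS2APP;Trem2ko mice, the largest fall of the list (log2 fold change -4.78, SE 0.49, adjusted p = 6.74e-05). Mfge8, which bridges phosphatidylserine to αVβ3 and αVβ5, had 20.8, 23.1 and 29.7 nRPKM in the lowest, median and highest PS2APP;Trem2wt mouse and at most 20.6 nRPKM in PS2APP;Trem2ko mice. The genotypes did not overlap, by a narrow margin, and the log2 fold change was -0.49 (adjusted p = 0.0153, SE 0.098). Among females alone, Mfge8 did not pass the test (log2 fold change -0.42, edgeR, adjusted p = 0.0921).

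Lamb2, the laminin β2 chain, had 3.04, 5.24 and 8.74 nRPKM in the lowest, median and highest PS2APP;Trem2wt mouse and 2.47 to 3.47 nRPKM in PS2APP;Trem2ko mice, of which 4 lay below every PS2APP;Trem2wt mouse. Its log2 fold change was -0.99 (adjusted p = 0.0129, SE 0.19). The other abundant ligands did not pass the test: F11r, the junctional adhesion molecule JAM-A and a ligand of LFA-1, had a log2 fold change of -0.25 (adjusted p = 0.0751, SE 0.067), Nrros, which tethers latent TGF-β on microglia, 0.12 (adjusted p = 0.463, SE 0.069), and Icam1, the main ligand of LFA-1 and Mac-1, -0.06 (adjusted p = 0.879, SE 0.12).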

How the data were processed

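RNA from FACS-sorted cells of 13 mice was sequenced as single-end 50-base reads, and each mouse is 1 sample of its genotype. For each mouse the authors deposited counts, the number of reads per gene without normalization, and nRPKM, a size-factor-adjusted RPKM, after alignment to GRCm38 with GSNAP. Whether the counting used strand is not given in the sources used here. Deposited counts were used for the genome-wide test, and RPKM values for levels and ratios. Gene names and positions are from GENCODE M21. Among 36 pairs of mice of 1 genotype, the chi-square of the counts was at least 19.6 times sampling noise.

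The 10 subunits, the gene lists and the marker lists were chosen with earlier results of these data known. Genes were filtered with filterByExpr, scaled by TMM and tested with edgeR 4.0.16 (glmQLFit, glmQLFTest, no covariate) in R 4.3.3, with Benjamini-Hochberg adjustment over all genes, and the common biological coefficient of variation was 0.299. Named genes were the 10 subunits, of each other list the genes called and the 4 most abundant, and the 5 most like Itgax. Itga2b, Ptk2, Gm49368 and Cerkl were named after their values were seen. Exact permutation tests were run in Python 3.11.15 (numpy 2.4.6, pandas 2.3.3, scipy 1.17.1). As alternatives, each mouse was left out in turn, females were tested alone, sex entered as a covariate, DESeq2 1.42.0 and voom+limma (limma 3.58.1) took the place of edgeR, limma was run on log2 nRPKM with pseudocounts of 0.1 and 1, scaling was by RLE, the filter was dropped or set at 10 counts in 6 mice, counts were thinned to the smallest library, a 2-fold threshold was added, ratios were taken from counts, and the order from medians. Each test was first tested on simulated data. Limits of detection cover counting error only.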

Additional observations from a re-analysis of the deposited data

Results flagged for a closer look

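In PS2APP;Trem2wt replicate 3, Itgax stood at 51.2 nRPKM, far above the next highest mouse of its genotype at 28.7 nRPKM, a gap of 0.681 of the whole range where Dixon's critical value for 7 mice is 0.568. In PS2APP;Trem2wt replicate 2, Itga4 stood at 0.499 nRPKM, with the next at 0.273 nRPKM and a gap of 0.6 of the range. This mouse also had the highest sum of neutrophil markers, 150 nRPKM against a median of 26.3 in its genotype. Its sum of monocyte markers, 21.7 nRPKM against a median of 6.77 in its genotype, was the highest as well. The part of these cell types in its Itga4 level was not tested. Chance alone marks about 1 in 20 groups in this way, or about 2 of the 40 groups of values examined, and 2 were marked.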

How the results depend on the processing

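Over 23 alternatives Itgax kept its direction and its call, with log2 fold changes from -2.33 to -2.02 and adjusted p-values from 4.98e-27 (DESeq2) to 0.00127 (females only). Of 230 comparisons of the 10 subunits' log2 fold changes with an alternative, 227 kept direction and side of the threshold. The count of subunits lower in PS2APP;Trem2ko rose from 1 to 2 with DESeq2, through Itgav, and was 1 whichever mouse was left out. Itgav was below an adjusted p of 0.05 only with DESeq2 (range over alternatives 0.0176 to 0.208). Integrin activators and adaptors had 1 gene lower with voom+limma (Ptk2, adjusted p = 0.0414 against 0.0628 with edgeR). Directions turned for Itgb2 (0.02 without PS2APP;Trem2wt replicate 3, other mice left out down to -0.11), Itga4 (-0.11 without PS2APP;Trem2ko replicate 3, others up to 0.43) and the Itga6 to Itgb1 ratio (0.01 with females only, -0.05 to 0.07 over mice left out), none of which passed a test under any alternative. Of 150 comparisons of pair differences 134 kept direction and call, and the number of pairs passing was between 2 and 3, with Itgb1 over Itgav as the one lost. The cause of these changes was not tested. The order by median told apart 6 and 7 neighbours, as by mean. No paired analysis was possible because the labels give no replicate numbers. The numbers used here follow the listing order and pair no mice, and although the methods say that mice were generally handled as pairs of both genotypes up to the sort, the labels do not tell which mice formed a pair.

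Depth did not limit the abundant subunits. Itgal and Itga4 rested on fewer counts, 78 to 1265 and 70 to 672 per mouse, and Itgad on 1 to 94. Without transgene-negative mice, no comparison shows whether PS2APP itself raises Itgax. RNA levels say nothing of subunit protein or surface pairing. Cells were sorted on CD11b, the product of Itgam.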
